A study of Mus musculus with 12 samples.

Results

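A set of 41 genes of fatty acid breakdown, its nuclear receptor and ketone body metabolism was followed in mouse liver. The members were taken by symbol from the deposited gene table, which lists 56748 genes, and all 41 were found there and had enough counts to be tested. They were grouped by role into 8 genes of peroxisomal oxidation, 14 of mitochondrial oxidation and the carnitine shuttle, 4 acyl-CoA thioesterases, 5 genes of fatty acid transport, binding and storage, 4 regulators and 6 ketone body genes. Members and lists were chosen with earlier results of these data known, so shares set beside those of all genes below are descriptive. The libraries came from poly(A) RNA of whole liver of mice aged 16 weeks, fed normal chow and housed together. The 4 groups were KO females, WT females, KO males and WT males, with 3 libraries in each, which the series calls biological replicates. KO mice were of the line 129/Sv-Cyp2e1tm1Gonz/J, which carries a targeted allele of Cyp2e1, a cytochrome P450 that oxidises ethanol, acetone and fatty acids, and WT mice were of the line 129S1/SvImJ. KO and WT are separate lines, so an effect of the allele and a difference between the lines cannot be told apart in any KO comparison below.

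PPARalpha, encoded by Ppara, is a nuclear receptor of hepatocytes that is activated by fatty acids. It pairs with the retinoid X receptor on direct repeats of the hexamer AGGTCA and switches on genes that import, activate and oxidise fatty acids in fasting. Long-chain fatty acids enter mitochondria through the carnitine shuttle, very-long-chain fatty acids are first shortened in peroxisomes, and much of the acetyl-CoA made in fasted liver leaves the cell as ketone bodies.

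Total counts ran from 15167730 to 25082532 per library. Levels below are CPM, counts scaled to library size after TMM normalisation. Differences are log2 fold changes ± standard error from a quasi-likelihood model in edgeR over the 4 groups, and a gene was called at a Benjamini-Hochberg adjusted p under 0.05 over the 14003 genes tested. Cyp2e1 stood at 230, 323 and 277 CPM in KO females against 6213, 6349 and 7076 CPM in WT females, and at 389, 403 and 318 CPM in KO males against 10374, 11480 and 10700 CPM in WT males. The hepatocyte markers Alb, Ttr, Apoa1 and Serpina1c summed to between 60286 and 103232 CPM in every library. KO female replicate 2 also held skeletal muscle transcripts, with 62.6 CPM summed over 4 markers against at most 0.186 CPM in any other library. Libraries further differed in length slope, the change of log2 CPM per doubling of gene length relative to the mean of all libraries. It averaged 0.19 ± 0.10 in KO females against -0.19 ± 0.04 in WT females, groups that did not overlap, and 0.03 ± 0.17 in KO males against -0.02 ± 0.13 in WT males (SD, n = 3 each). In bulk liver, fewer cells of a type and less RNA per cell cannot be told apart.

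Levels of different genes were set side by side per kilobase of the deposited gene length. This comparison is rough, since that length can exceed a transcript's. It is 8730 bases for Hadha, whose protein-coding transcripts hold 3968 distinct words of 50 bases. The members spanned from 7465 CPM per kb for Fabp1, the liver fatty acid binding protein, to 0.478 CPM per kb for the monocarboxylate transporter Slc16a6, as means of the 12 libraries. The mitochondrial thiolase Acaa2 (736 CPM per kb), the peroxisomal thiolase Acaa1b (348) and the very-long-chain acyl-CoA synthetase Slc27a2 (248) followed Fabp1. At the low end, Pdk4 had 0.627 and the hormone Fgf21 1.64 CPM per kb. All members together held 11563 ± 1079 CPM in KO females against 15466 ± 1424 CPM in WT females, and 12072 ± 2093 CPM in KO males against 12566 ± 1452 CPM in WT males. Fabp1 alone averaged 2573 ± 573 CPM in KO females and 6103 ± 1760 CPM in WT females (SD, n = 3 each).

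**Figure D1:**
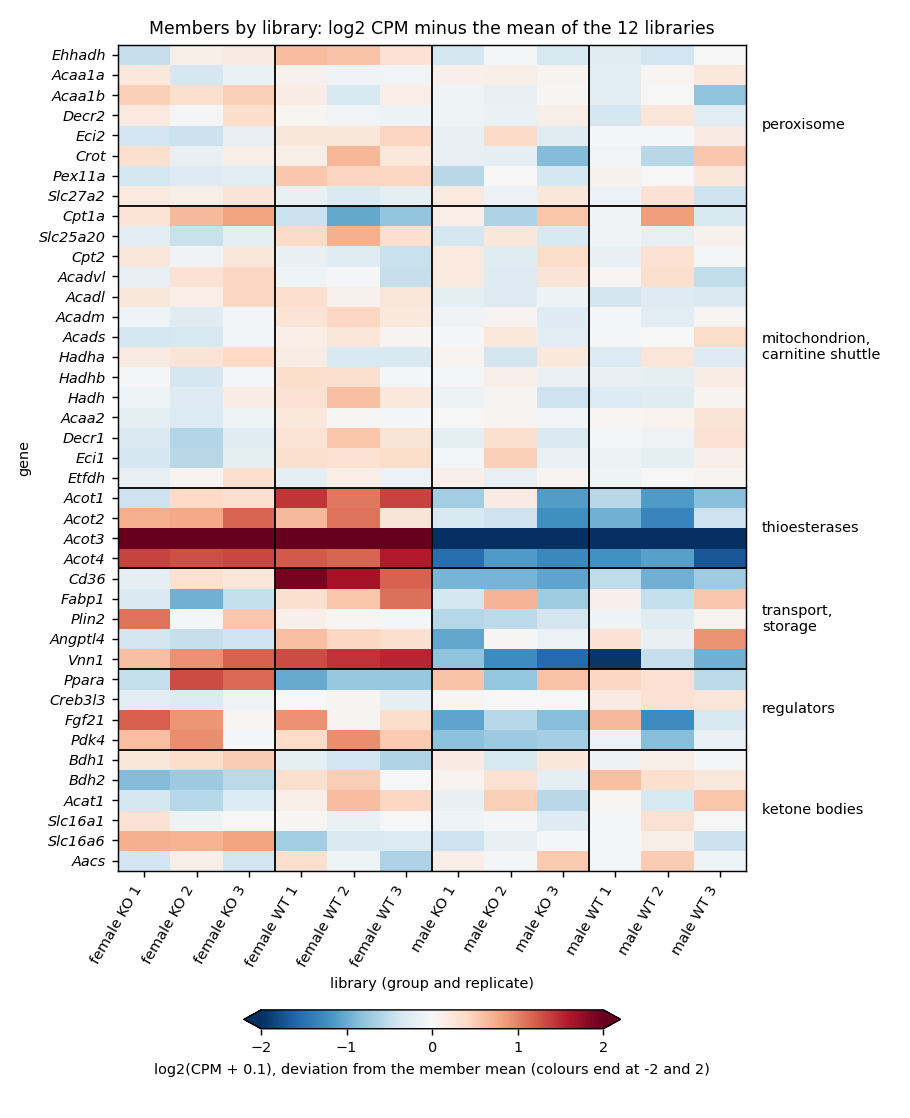
Level of each of the 41 members (rows, by role) in each of the 12 libraries (columns), as log2 CPM minus the gene's mean over the libraries, with colours ending at -2 and 2. Acot3 and Acot4 separate the sexes in both lines, Cd36 is highest in the 3 WT female libraries, and the KO and WT columns of males look alike for most rows.

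In females, 16 of the 41 members (39.0%) differed between KO and WT livers, against 36.5% of all genes tested (5116 of 14003), a share near the background. Of these, 4 (beside 17.7% of all genes) rose in KO females, namely Ppara, the carnitine palmitoyltransferase Cpt1a, the ketone body enzyme Bdh1 and the transporter Slc16a6. The other 12 (beside 18.8% of all genes) fell, among them Cd36, Fabp1, Acot1 and Bdh2. The members' median log2 fold change was -0.15, beside 0.05 for all genes. The libraries of KO and WT females did not overlap for 25 members (8 higher, 17 lower), and over all genes 54.8% did not overlap. Every call was lost without KO female replicate 2 (0 of 41 called), without WT female replicate 2 (0) and with the slope of gene length added to the model (0, beside 0.0714% of all genes). Shares of all genes called in the fits without a library are not given here, so these losses cannot be read as particular to the members. All 16 kept their sign without either library. At an unadjusted p under 0.05 there were 20 members with all libraries, beside 48.5% of all genes, 18 without KO replicate 2 and 14 without WT replicate 2.

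**Figure D2:**
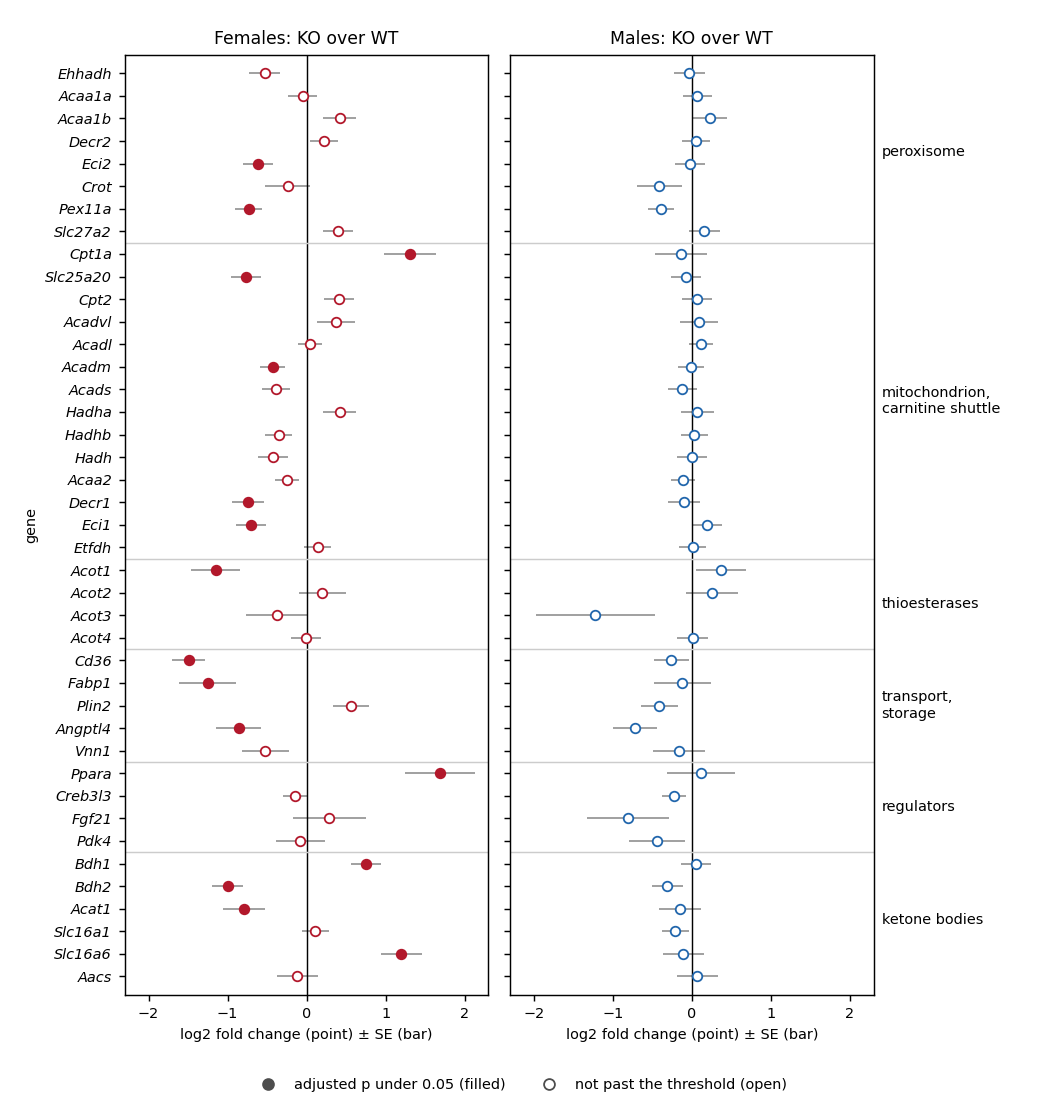
Log2 fold change of KO over WT (points) with its standard error (bars) for each member, in females (left) and males (right); filled points passed an adjusted p under 0.05. Filled points lie on both sides of 0 in females (4 higher, 12 lower) and there are none in males.

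Among the peroxisomal genes, 2 of 8 fell in KO females and none rose (25%, beside 36.5% of all genes called). Pex11a, a membrane protein that drives the division of peroxisomes (chromosome 7, 79385705 to 79392879, mm39), had 45.8, 48.8 and 50.2 CPM in KO females against 84.3, 78.8 and 77.8 CPM in WT females. The female groups did not overlap and lay close together within each line, with a fold change of -0.73 ± 0.17 (adjusted p = 0.0142). Eci2, the peroxisomal isomerase that prepares unsaturated fatty acids for oxidation, had 140, 135 and 163 CPM in KO females against 214, 214 and 245 CPM in WT females. Every KO library was below every WT library (-0.62 ± 0.19, adjusted p = 0.0237). Ehhadh, the bifunctional enzyme of the classical peroxisomal pathway, was lower in all 3 KO female libraries but did not pass (-0.53 ± 0.20, adjusted p = 0.0532). The thiolase Acaa1b (0.42) and Slc27a2 (0.40) were higher in all 3 KO female libraries without passing. Acaa1a (-0.05), the second thiolase, Decr2 (0.22), a reductase for unsaturated fatty acids, and Crot (-0.24), which makes medium-chain acylcarnitines for export from the peroxisome, overlapped between the lines. Acaa1a and Acaa1b share 26.7% and 35.5% of their 50-base words with each other, so how reads were divided between them is uncertain.

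Of the 14 mitochondrial members, 1 rose and 4 fell in KO females (35.7%, beside 36.5% of all genes), a share near the background. Cpt1a, the outer-membrane transferase that limits the entry of long-chain fatty acids (chromosome 19, 3372334 to 3435733, mm39), had 279, 363 and 404 CPM in KO females against 172, 114 and 134 CPM in WT females. All KO libraries were higher, by 1.31 ± 0.33 (adjusted p = 0.0150), a 2.49-fold difference. Slc25a20, the carrier that takes the acylcarnitines made by Cpt1a across the inner membrane, went the other way. It had 95.5, 81.0 and 96.6 CPM in KO females against 145, 182 and 139 CPM in WT females, with no overlap (-0.77 ± 0.19, adjusted p = 0.0147). Cpt2, which releases the acyl-CoA on the inner side, was higher in every KO female library but did not pass (0.41 ± 0.19, adjusted p = 0.109). Decr1 and Eci1, mitochondrial auxiliary enzymes for unsaturated fatty acids, were each called lower. Decr1 had 123, 99.3 and 127 CPM in KO females against 181, 221 and 179 CPM in WT females (-0.74 ± 0.20, adjusted p = 0.0171). Eci1 had 122, 105 and 135 CPM in KO females against 194, 191 and 200 CPM in WT females (-0.70 ± 0.19, adjusted p = 0.0166). For both genes the highest KO library was below the lowest WT library. The medium-chain dehydrogenase Acadm was the fourth to fall (-0.43 ± 0.16, adjusted p = 0.0481), a call kept in 1 of the 12 fits that left out a library.

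The 9 other mitochondrial members did not pass in females, with fold changes from -0.43 for Hadh to 0.42 for Hadha. The dehydrogenases for very-long-chain (Acadvl, 0.37), long-chain (Acadl, 0.04) and short-chain (Acads, -0.39) acyl-CoAs were among them. The trifunctional protein's subunits had opposite signs, with the alpha subunit Hadha at 0.42 and higher in all KO libraries and the beta subunit Hadhb at -0.35 with overlapping groups. Hadh, the short-chain hydroxyacyl-CoA dehydrogenase, and the thiolase Acaa2 (-0.25) were lower in all KO libraries. Etfdh, which passes the electrons of these dehydrogenases to ubiquinone, was at 0.14 with overlapping groups.

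The promoter window of Cpt1a is shown because the gene was the only mitochondrial member that rose in KO females. A link between this window and the level of Cpt1a or of Ppara was not tested. It is RefSeq sequence on GRCm38.p6, chr19:3323051-3323350, plus strand, from 250 bases before to 50 bases after the start, with a match to AGGTCA on the opposite strand in capitals at -94.
Cpt1a: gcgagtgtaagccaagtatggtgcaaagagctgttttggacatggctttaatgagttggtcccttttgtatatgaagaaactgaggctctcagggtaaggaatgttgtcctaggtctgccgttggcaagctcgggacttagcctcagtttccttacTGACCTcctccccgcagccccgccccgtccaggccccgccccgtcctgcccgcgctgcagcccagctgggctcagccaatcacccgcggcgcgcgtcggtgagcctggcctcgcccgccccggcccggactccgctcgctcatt
AGGTCA was searched on both strands, and 16.3% of all 32851 windows of this length hold it.

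The 4 thioesterases, which release free fatty acids from acyl-CoA, lie in a cluster on chromosome 12. In KO females only Acot1, the cytosolic enzyme, was called (25%, beside 36.5% of all genes). It had 10.2, 17.9 and 17.0 CPM in KO females against 36.8, 28.4 and 34.9 CPM in WT females, and no library of one line reached the other (-1.15 ± 0.31, adjusted p = 0.0167). The mitochondrial Acot2 (0.20 ± 0.30) and the peroxisomal Acot3 (-0.38 ± 0.39) and Acot4 (-0.01 ± 0.19) overlapped between the lines. Acot1 shares 31.8% of its 50-base words with other members of the family, mostly Acot2, and Acot2 shares 27.6%, so the split of reads between this pair is uncertain.

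Among genes of transport, binding and storage, 3 of 5 fell in KO females, beside 18.8% of all genes, and the list had a median of -0.86, beside 0.05 for all genes. Cd36, a fatty acid transporter of the cell surface (chromosome 5, 17986688 to 18093799, mm39), had 18.8, 26.4 and 25.1 CPM in KO females against 80.8, 68.2 and 48.8 CPM in WT females. The highest KO library was well below the lowest WT library, and the fold change of -1.49 ± 0.21 (adjusted p = 0.0100) was the largest fall among members in females. Fabp1 (chromosome 6, 71176811 to 71182007, mm39) had 3073, 1948 and 2697 CPM in KO females against 4708, 5522 and 8081 CPM in WT females, with no overlap (-1.25 ± 0.36, adjusted p = 0.0211). Angptl4, a secreted inhibitor of lipoprotein lipase, had 62.2, 58.1 and 60.8 CPM in KO females against 122, 107 and 101 CPM in WT females (-0.86 ± 0.28, adjusted p = 0.0317). Its KO libraries were all lower, and the call was kept in 6 of 12 fits that left out a library. Plin2, the coat protein of lipid droplets, had 373, 172 and 257 CPM in KO females against 190, 180 and 174 CPM in WT females, overlapped and did not pass (0.56 ± 0.23, adjusted p = 0.0700). The pantetheinase Vnn1 was lower in all KO female libraries without passing (-0.52 ± 0.30, adjusted p = 0.184).

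Cd36 is also made by adipocytes, macrophages and endothelium. Adipocyte markers summed to 0.917 to 2.09 CPM in KO females against 1.15 to 1.65 CPM in WT females, with 3 of 7 markers at 0 in KO females and 4 in WT females. Macrophage markers summed to 166 to 195 CPM in KO females against 116 to 172 CPM in WT females, and sinusoidal endothelial markers to 184 to 232 CPM in KO females against 132 to 161 CPM in WT females, none of 7 at 0 in either list. Some single markers moved more than these sums. The macrophage genes Marco (2.23 ± 0.53), Csf1r (1.56 ± 0.28) and Cd5l (0.92 ± 0.21) rose in KO females. So did the endothelial genes Cdh5 (1.18 ± 0.30), Stab2 (0.90 ± 0.27) and Stab1 (0.72 ± 0.23), 3 of 7 in each list, beside 17.7% of all genes. Clec4f (-0.08), an abundant Kupffer cell marker, was not called. The endothelial marker Clec4g (-0.40 ± 0.25), the only negative estimate of its list, was lower in every KO female library without being called. Over all marker lists 10 of the 32 markers tested rose and 2 fell (37.5%, against 36.5% of all genes), and none of these 12 was called with the length slope in the model. Another macrophage marker, Timd4, was called there (1.90, adjusted p = 0.0387), beside 0.0714% of all genes. Estimates there were 2.68 for Marco, 1.39 for Cd5l, 0.93 for Csf1r, 0.25 for Cdh5, 0.02 for Stab1 and -0.16 for Stab2. The part of these cells in the Cd36 result was not tested.

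Fabp1 and Cd36 are shown with their promoter windows, since both fell in KO females and Fabp1 was the only member of the 35 with a window that matched the pattern AGGNCANAGGNCA, a loosened direct repeat that 0.381% of all windows hold. The windows are RefSeq sequence on GRCm38.p6, Fabp1 at chr6:71199629-71199928 on the plus strand and Cd36 at chr5:17835847-17836146 on the minus strand. Capitals mark matches to that pattern or to AGGTCA, all on the strand opposite to the gene. In Fabp1 the long match begins at -67 and includes a hexamer match, and another hexamer match begins at -9. In Cd36 a hexamer match begins at -228.
Fabp1: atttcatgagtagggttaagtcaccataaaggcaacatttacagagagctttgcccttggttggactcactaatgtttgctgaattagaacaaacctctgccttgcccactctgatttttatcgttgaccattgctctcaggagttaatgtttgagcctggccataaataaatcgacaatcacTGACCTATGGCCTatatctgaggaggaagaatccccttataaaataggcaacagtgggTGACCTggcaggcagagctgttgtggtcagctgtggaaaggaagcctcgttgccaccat
Cd36: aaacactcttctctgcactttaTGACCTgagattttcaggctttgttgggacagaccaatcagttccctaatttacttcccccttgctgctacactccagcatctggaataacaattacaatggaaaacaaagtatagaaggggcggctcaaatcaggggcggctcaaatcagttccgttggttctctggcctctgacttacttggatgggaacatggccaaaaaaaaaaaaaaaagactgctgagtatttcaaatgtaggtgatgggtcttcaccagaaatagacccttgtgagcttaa
The exact repeat AGGTCANAGGTCA was in 0.0396% of all windows and in 0 of the 35 members' windows. The hexamer was in 10 of the 35 members (28.6%), each counted once over all of its windows. It was in 16.3% of all windows, counted per window, so these shares are not in the same unit.

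Of the 4 regulators, Ppara alone was called in females (25%, beside 36.5% of all genes). Ppara (chromosome 15, 85619184 to 85687020, mm39) had 19.8, 68.8 and 60.6 CPM in KO females against 13.7, 16.3 and 16.3 CPM in WT females. KO replicate 1 stood far below the other two KO libraries and just above the WT range, and the fold change was 1.69 ± 0.44 (adjusted p = 0.0157). Creb3l3, a hepatic transcription factor that acts with PPARalpha in fasting, was at -0.15, Fgf21, a hormone of the fasting response, at 0.29, and Pdk4, a kinase that holds back pyruvate dehydrogenase, at -0.08, and the groups of all 3 overlapped. Fgf21 and Pdk4 were read at 22 to 72 counts and 45 to 84 counts per female library, with standard errors of 0.46 and 0.31.

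Among the 6 ketone body genes, 2 rose and 2 fell in KO females (66.7%, beside 36.5% of all genes called). Bdh1, the mitochondrial enzyme that interconverts acetoacetate and beta-hydroxybutyrate, had 369, 402 and 448 CPM in KO females against 279, 240 and 208 CPM in WT females, without overlap (0.75 ± 0.19, adjusted p = 0.0148). Bdh2, a cytosolic dehydrogenase of the same name but another family, had 9.74, 10.7 and 12.2 CPM in KO females against 22.4, 25.1 and 17.7 CPM in WT females. It was lower in every KO library, by -1.0 ± 0.20 (adjusted p = 0.0139). Acat1, the mitochondrial acetoacetyl-CoA thiolase, had 389, 335 and 410 CPM in KO females against 538, 759 and 660 CPM in WT females (-0.79 ± 0.27, adjusted p = 0.0391). The groups did not overlap, and the call was kept in 5 of 12 fits that left out a library. Slc16a6, whose zebrafish counterpart exports ketone bodies from hepatocytes, had 3.69, 3.61 and 3.92 CPM in KO females against 1.32, 1.79 and 1.80 CPM in WT females, the narrowest KO range of the list (1.20 ± 0.26, adjusted p = 0.0140). It was read at 28 counts in each WT female library, and its locus overlaps Arsg and Amz2 on the opposite strand, at 20.6 and 15.1 CPM over all libraries. Whether counting used strand is unknown here, so reads of these genes cannot be told apart; neither Arsg (0.29) nor Amz2 (0.17) was called in females. The lactate and ketone body carrier Slc16a1 (0.11) and Aacs (-0.12), which activates acetoacetate for lipid synthesis, overlapped and were not called.

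**Figure D3:**
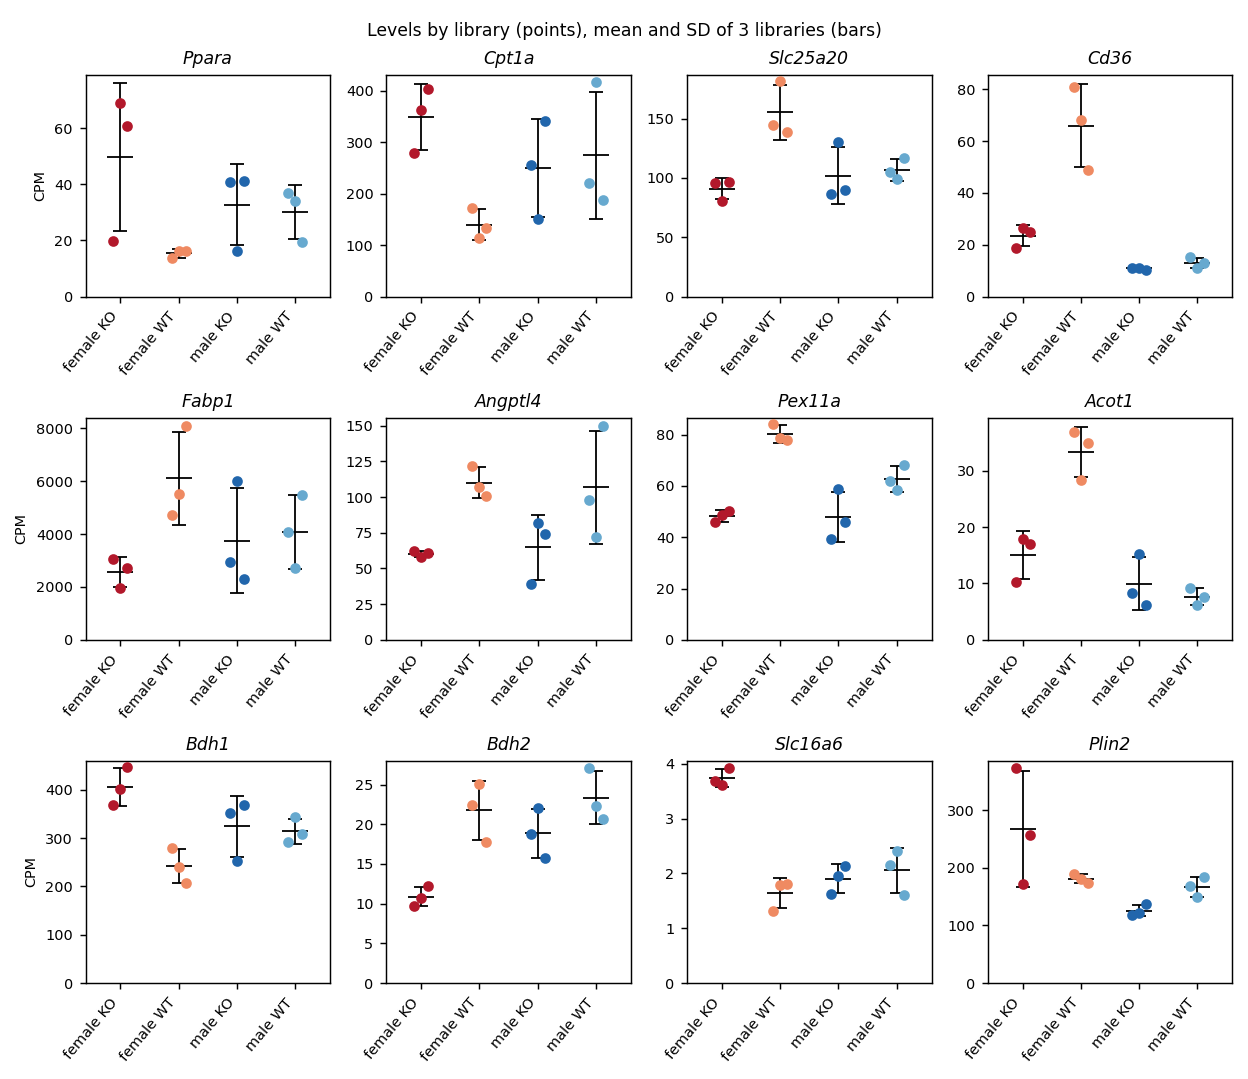
CPM of 12 members in each library (points) with the mean and SD of the 3 libraries of a group (bars), KO left of WT in each sex; axes start at 0. The female groups separate for every gene shown but Plin2, while among males only Plin2 separates, with KO libraries at 118 to 137 CPM and WT libraries at 149 to 184 CPM.

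Among males, KO replicate 2 (-0.17) and WT replicate 3 (-0.16) had the lowest length slopes. These libraries had the highest male Fabp1 (6012 and 5487 CPM) and Acat1 (690 and 725 CPM). They also had the lowest male Cpt1a (151 and 187 CPM) and Ppara (16.1 and 19.3 CPM). Their Cd36 (11.2 and 13 CPM) lay within the range of the other male libraries. With the slope in the model, the female KO fold change of Cpt1a was -0.02, of Ppara -0.11, of Fabp1 0.21 and of Acat1 0.29, each with its sign turned. Cd36 (-1.57), Slc16a6 (1.02), Bdh2 (-0.81), Acot1 (-0.58) and Pex11a (-0.43) moved least in relative terms, and the other 7 called members stood between -0.23 and 0.28. No adjusted p was under 0.05 there, the smallest being 0.112 for Cd36. With a smooth trend on gene length removed from each library instead, 17 members were called (7 higher, 10 lower), beside 30.2% of all genes. These were not the same members throughout. Acadm, Eci1, Acat1 and Fabp1, then at -0.08, lost their calls, and others such as Acaa1b (0.86) and Cpt2 (0.72) gained one. Cpt1a (0.97), Ppara (1.71) and Cd36 (-1.43) stayed called. Within females an effect of line and one of length slope cannot be told apart, since the groups do not overlap in slope.

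**Figure D4:**
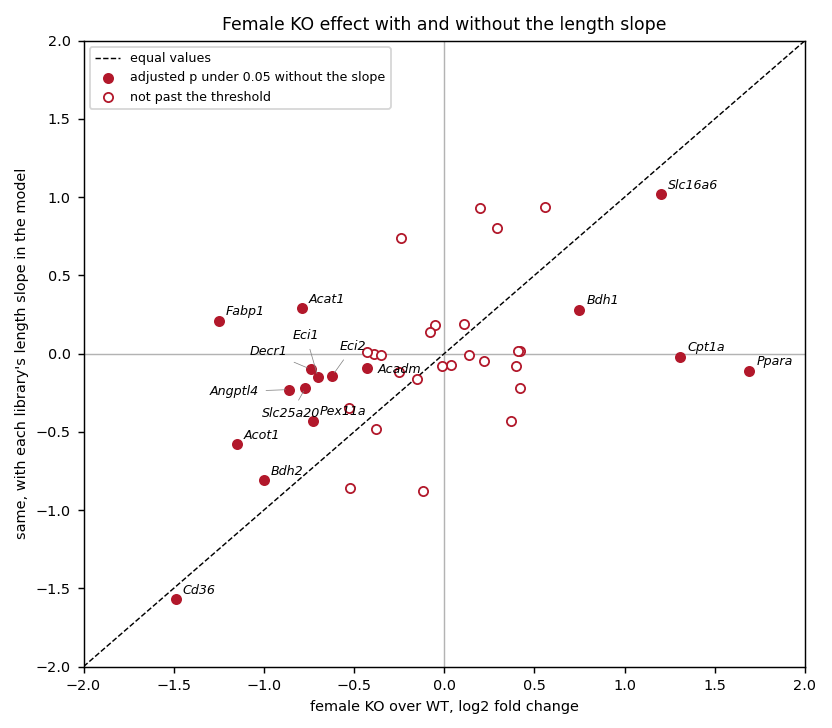
Female KO over WT log2 fold change of each member without (x axis) and with (y axis) the length slopes as a model term; filled points were called without it and the dashed line marks equal values. Cd36 and Slc16a6 lie near the line, while Cpt1a, Ppara, Fabp1 and Acat1 lie at or across 0 on the y axis.

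In males, 0 of the 41 members were called between KO and WT livers by edgeR, against 0.0571% of all genes tested (8 of 14003), and DESeq2 also called 0. At an unadjusted p under 0.05 there were 2 members, and 4.84% of all genes. Angptl4 had 39.0, 81.5 and 73.8 CPM in KO males against 97.9, 72.2 and 150 CPM in WT males, with overlap (-0.72 ± 0.28, adjusted p = 0.922). Pex11a had 39.5, 58.7 and 45.8 CPM in KO males against 61.9, 58.3 and 68.0 CPM in WT males, with the highest KO library just above the lowest WT library (-0.39 ± 0.17, adjusted p = 0.980). Both had negative estimates, as in females. The groups did not overlap for 2 members, Plin2 (-0.41 ± 0.23) and Creb3l3 (-0.23 ± 0.15), both lower in KO males, while 9.62% of all genes did not overlap. The members' median was -0.03, beside 0.00 for all genes, and standard errors ran from 0.15 to 0.75.

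Several members that were called in females were spread widely in males. Cpt1a had 255, 151 and 342 CPM in KO males against 221, 416 and 187 CPM in WT males (-0.14 ± 0.33). Ppara had 40.9, 16.1 and 41.2 CPM in KO males against 36.9, 34.2 and 19.3 CPM in WT males (0.12 ± 0.43). Cd36 was tighter, at 11.2, 11.2 and 10.3 CPM in KO males against 15.1, 11.0 and 13 CPM in WT males (-0.26 ± 0.22). In all 3 genes the male groups overlapped. Acot1 (0.37 ± 0.32), Bdh1 (0.05 ± 0.19), Bdh2 (-0.31 ± 0.20) and Slc16a6 (-0.11 ± 0.26) overlapped too.

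The difference of the KO effect between the sexes, male minus female, was called for 0 of 41 members and for 0% of all genes by edgeR. There were 13 members at an unadjusted p under 0.05, beside 22.5% of all genes. DESeq2 called 3 members, a count given here without the share of all genes. In edgeR the smallest p was that of Cd36 (1.24 ± 0.30, adjusted p = 0.204). Acot1 (1.52 ± 0.44), Slc16a6 (-1.31 ± 0.37), Cpt1a (-1.46 ± 0.47) and Ppara (-1.57 ± 0.61) had the same adjusted p of 0.204. With the main edgeR settings an effect limited to females was therefore not shown for any member, and the calls of DESeq2 differ from this. Averaged over the sexes, 4 members fell and none rose (9.76%), against 15.1% of all genes called, 7.29% of them lower. These were Cd36 (-0.87 ± 0.15, adjusted p = 0.0188), Pex11a (-0.56 ± 0.12, adjusted p = 0.0285), Bdh2 (-0.65 ± 0.14, adjusted p = 0.0285) and Angptl4 (-0.79 ± 0.20, adjusted p = 0.0354). Their count depended on single libraries. It was 0 without KO female replicate 2, WT female replicate 1 or 2, KO male replicate 1 or 3, or WT male replicate 1, and 1 without WT male replicate 3. It was 15 without KO male replicate 2 and 14 without WT male replicate 2. Shares of all genes called in these fits are not given here, so the shifts cannot be read as particular to the members.

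Sex separated a few members by far more than line did. In WT livers 6 of 41 members (14.6%) were lower in males than in females and none was higher, against 4.49% of all genes called in either direction and 2.39% lower. They were all 4 thioesterases, Cd36 and Vnn1. In KO livers 9 members (22.0%) differed, against 5.4% of all genes, with 8 lower in males, beside 2.45% of all genes, and Bdh2 higher. Male and female libraries did not overlap for 20 members in WT livers and 16 in KO livers, beside 26.9% and 28.1% of all genes. The WT comparison of the sexes shares the WT females with the female KO comparison, and the KO comparison of the sexes shares the KO females with it.

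Acot3 (chromosome 12, 84098918 to 84107176, mm39) had 0.324, 0.362 and 0.0466 CPM in KO males against 115, 94.2 and 142 CPM in KO females. WT males had 0.468, 1.06 and 0.0620 CPM against 133, 121 and 205 CPM in WT females. Male libraries held 1 to 19 counts of Acot3 and female libraries 1895 to 3870, the widest gap of any member. The fold change was -8.97 ± 0.62 in KO (adjusted p = 8.21e-07) and -8.13 ± 0.57 in WT livers (adjusted p = 7.60e-07). Acot4 (chromosome 12, 84085153 to 84095375, mm39) had 16.2, 21.2 and 19.0 CPM in KO males against 119, 114 and 117 CPM in KO females, and 20.0, 21.8 and 14.1 CPM in WT males against 109, 104 and 140 CPM in WT females. No male library came near a female one, and the estimates for the lines were close, at -2.64 ± 0.21 in KO (adjusted p = 2.71e-06) and -2.66 ± 0.21 in WT livers (adjusted p = 2.34e-06).

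Acot2 was lower in males in both lines, by -1.53 ± 0.32 in KO (adjusted p = 0.0122) and -1.59 ± 0.32 in WT livers (adjusted p = 0.0111). Acot1 was lower in WT males (-2.13 ± 0.32, adjusted p = 0.00125) but did not pass between KO males and KO females (-0.60 ± 0.31, adjusted p = 0.268). Its KO males had 8.37, 15.3 and 6.2 CPM and its WT males 9.18, 6.15 and 7.56 CPM, beside the female values given above. Summed over the 4 genes, thioesterases held 32.3 ± 7.30 CPM in KO males against 259 ± 26.7 CPM in KO females, and 29.5 ± 3.52 CPM in WT males against 312 ± 64.8 CPM in WT females (SD, n = 3 each). Acot3 and Acot4 share 7.57% and 4.36% of their 50-base words with other family members. A lncRNA gene, 4732463B04Rik, spans them on the opposite strand at a mean of 1.15 CPM and was also lower in males (-3.01 in KO and -3.41 in WT livers); without a known strand setting its reads cannot be told apart from theirs.

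The windows at the starts of Acot4 and Acot3 are shown because these members had the largest sex differences. They are RefSeq sequence on GRCm38.p6, plus strand, at chr12:84038129-84038428 for Acot4 and chr12:84051901-84052200 for the downstream of the starts listed for Acot3. Each holds a match to AGGTCA on the opposite strand, in capitals, at -13 in Acot4 and at 12 after the start in Acot3.
Acot4: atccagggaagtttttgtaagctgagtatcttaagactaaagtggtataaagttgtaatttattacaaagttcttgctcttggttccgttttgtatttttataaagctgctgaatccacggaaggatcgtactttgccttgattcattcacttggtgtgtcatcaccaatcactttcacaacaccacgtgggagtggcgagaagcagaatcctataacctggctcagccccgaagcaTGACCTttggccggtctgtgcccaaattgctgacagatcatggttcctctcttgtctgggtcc
Acot3: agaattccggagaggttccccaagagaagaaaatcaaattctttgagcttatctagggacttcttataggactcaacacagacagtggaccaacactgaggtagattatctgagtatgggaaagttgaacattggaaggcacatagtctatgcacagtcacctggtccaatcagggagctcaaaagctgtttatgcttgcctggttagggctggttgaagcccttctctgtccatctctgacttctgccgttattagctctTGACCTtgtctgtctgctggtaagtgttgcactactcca
The windows of Acot1 and Acot2 held no match to the hexamer.

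Cd36 was lower in males, at -1.10 ± 0.22 in KO (adjusted p = 0.00843) and -2.34 ± 0.22 in WT livers (adjusted p = 1.69e-05), and KO females stood between WT females and all 6 male libraries. In KO livers all 7 macrophage markers (median -0.50) and all 7 endothelial markers (median -0.55) also had negative estimates in males, beside a median of -0.04 for all genes. None was called in the main fit. With the length slope in the model, 3 macrophage markers were called lower in KO males, Clec4f (-0.80), Timd4 (-1.01) and Cd5l (-0.75). So was 1 endothelial marker, Clec4g (-0.71), beside 7.96% of all genes called. In WT livers the medians of the main fit were 0.24 for macrophage and -0.10 for endothelial markers, beside -0.01 for all genes. The part of these cells in the Cd36 difference was not tested. Vnn1 had 5.72, 4.13 and 3.36 CPM in KO males against 15.3, 18.9 and 22.7 CPM in KO females, and 2.53, 7.21 and 5.08 CPM in WT males against 25, 27.5 and 29.1 CPM in WT females. Males and females were apart in both lines, by -2.11 ± 0.32 in KO (adjusted p = 0.00149) and -2.47 ± 0.33 in WT livers (adjusted p = 0.000398). With the length slope in the model, all 6 sex calls in WT livers (beside 5.46% of all genes called) and 8 of the 9 in KO livers (beside 7.96%) were kept. The calls of Acot3, Acot4, Cd36 and Vnn1 in both lines, and that of Acot1 in WT livers, were kept in all 12 fits that left out a library. Acot2 lost its call without WT female replicate 2 or WT male replicate 1 in WT livers and without KO female replicate 3 in KO livers.

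**Figure D5:**
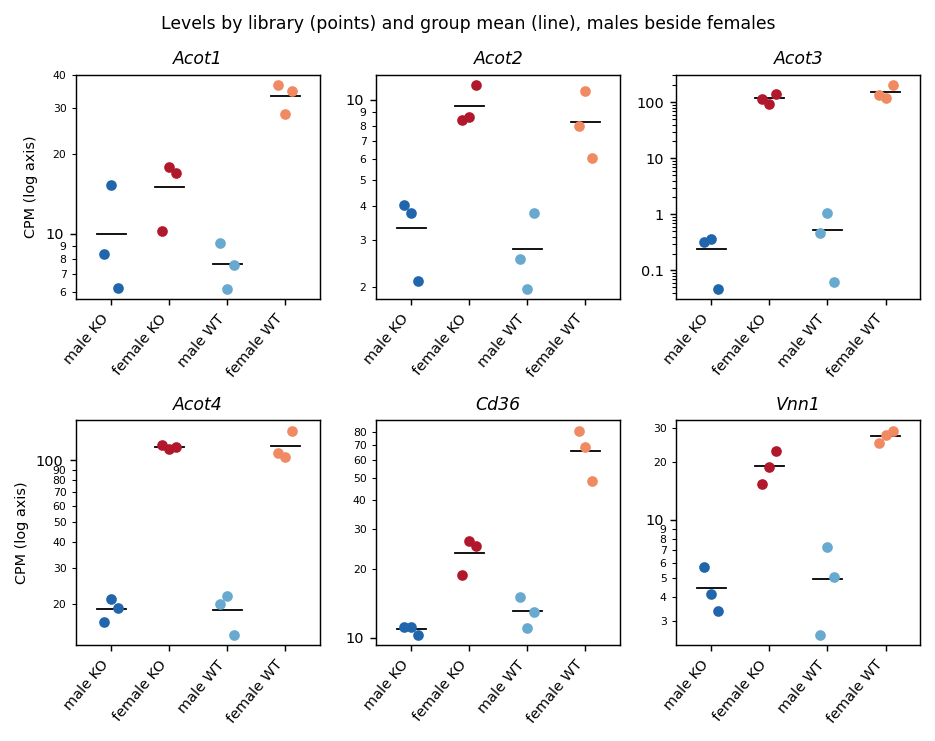
CPM of 6 members on log axes in each library (points) and the mean of each group (line), males left of females within KO and then WT. Acot3, Acot4, Cd36 and Vnn1 separate males from females in both lines, and Acot1 of KO females lies below Acot1 of WT females.

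The 4 further calls in KO livers rested on fewer libraries. Plin2 had 118, 122 and 137 CPM in KO males, all below the KO females (-1.09 ± 0.23, adjusted p = 0.0139), and lost its call without KO female replicate 1 or KO male replicate 1. Pdk4 had 1.08, 1.16 and 1.21 CPM in KO males against 3.07, 3.89 and 1.94 CPM in KO females (-1.36 ± 0.33, adjusted p = 0.0306), a call kept in 7 of 12 such fits. Bdh2 had 18.8, 22 and 15.8 CPM in KO males, all above the KO females (0.79 ± 0.20, adjusted p = 0.0341), kept in 6 of 12. Slc16a6 had 1.62, 1.95 and 2.14 CPM in KO males, all below the KO females (-0.97 ± 0.26, adjusted p = 0.0429), kept in 3 of 12. The count of members called was 5 without KO female replicate 1 and 5 without KO male replicate 1, with shares of all genes not given here. In WT livers none of these 4 genes passed, with Plin2 at -0.12, Pdk4 at -0.99, Bdh2 at 0.10 and Slc16a6 at 0.34.

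A further 60 genes of the same pathways were counted beside the members, 59 of them tested. They were listed with earlier results of these data known. Their called shares, set beside those of all genes, therefore describe the list and do not test it for enrichment. In females 14 rose and 15 fell in KO livers (49.2%), against 36.5% of all genes called, and none of them was called with the length slope in the model. Among them were Pex13, part of the peroxisomal import pore, at -1.23 ± 0.26 (adjusted p = 0.0139), and Acsl4, an acyl-CoA synthetase that prefers arachidonate, at -1.17 ± 0.24 (adjusted p = 0.0139). The coactivator Ppargc1b had 5.29, 7.64 and 7.30 CPM in KO females against 0.803, 0.893 and 1.42 CPM in WT females (2.71 ± 0.53, adjusted p = 0.0139), and stood at 0.75 with the length slope in the model. In males 3 rose and none fell (5.08%, against 0.0571% of all genes called), the fatty acid omega-hydroxylases Cyp4a10 (2.78 ± 0.33), Cyp4a14 (4.44 ± 0.55) and Cyp4a31 (2.48 ± 0.34), which are known PPARalpha targets. With the length slope in the model these were at 2.71, 4.41 and 2.42 and still called, beside 0.129% of all genes. Cyp4a10 had 27.9, 27.6 and 36 CPM in KO males against 5.9, 5.42 and 1.86 CPM in WT males. Cyp4a14 had 13.5, 23 and 12.4 CPM against 1.59, 0.335 and 0.186 CPM, and Cyp4a31 3.24, 2.32 and 4.34 CPM against 0.703, 0.615 and 0.434 CPM. Their lowest counts were 30, 3 and 7. KO male means (30.5, 16.3 and 3.3 CPM) lay below those of KO females (170, 242 and 9.96) and WT females (166, 187 and 4.26). The 3 Cyp4a genes lie close together on chromosome 4. Of the 41 members none was called in the same male comparison. Over both sexes 10 rose and 7 fell (28.8%), against 7.78% of all genes higher and 7.29% lower, including Crat, which makes acetylcarnitine (0.98 ± 0.21, adjusted p = 0.0296). With the length slope in the model 2 rose and 1 fell, beside 0.15% of all genes called. Between the sexes 4 were higher and 8 lower in WT males (20.3%, against 4.49% of all genes), and 4 higher and 6 lower in KO males (16.9%, against 5.4%). Abcd2, a peroxisomal importer of very-long-chain acyl-CoAs, was lower in males by -5.52 ± 0.36 in KO and -6.59 ± 0.38 in WT livers, while Scp2, a peroxisomal thiolase and sterol carrier, was higher by 1.36 ± 0.15 in KO and 1.16 ± 0.15 in WT livers.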

How the data were processed

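Liver poly(A) RNA libraries were counted per gene by the authors, and the deposited table holds raw counts. Per the submitters' processing notes, HISAT2 2.0.5, DESeq2 and the build mm39 were used, with no roles given. Program and strand setting of the counting: not given in the sources used here. This leaves antisense and near-identical genes uncertain.

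Each column was matched to its sample by library number. edgeR 4.0.16 (R 4.3.3) kept 14003 of 56748 genes with filterByExpr (99.9% of counts). TMM scaling and a quasi-likelihood fit with 1 mean per group over 12 libraries followed (8 residual degrees of freedom), tested in 6 contrasts with Benjamini-Hochberg adjustment over the genes tested. Standard errors were back-calculated from the F statistic. The biological coefficient of variation was 25.9%, and pairs of replicates were farther apart than counting error, with a chi-square per degree of freedom between 14.9 and 136. Nothing states that replicates were separate animals beyond the words biological replicates, so p-values measure the spread between these libraries. Counting error is largest, relative to the level, for members read at few counts. The fit was run on simulated counts with less spread between replicates than in these data and without length slopes. That run therefore does not show how the fit behaves where libraries differ in length slope. The length slope used 9366 genes with mean log2 CPM of at least 2.

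Members, role lists, the 60 further pathway genes and the markers were chosen with earlier results of these data known. Full values are given, within each role list, for up to 4 members of smallest adjusted p among those called in a KO comparison, up to 2 in each sex comparison, and Ppara, and for up to 4 of the further genes in each comparison. Other members appear in brief. Alternatives were DESeq2 1.42.0, its size factors, no filter on low counts, and the length slope in the model. Others were the length trend removed (local regression in R), a replicate block, only the 6 libraries compared, and leaving out libraries. Promoter windows were read from RefSeq (GRCm38.p6), matched by symbol for 35 of 41 members; shared 50-base words were counted in GENCODE M21 transcripts.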

Additional observations from a re-analysis of the deposited data

How the results depend on the processing

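The count of members called between KO and WT females (16) was 0 with the length slope in the model and 0 without both second female replicates. It ranged from 0 to 17 over the fits that left out 1 library. The slope turned the sign of Cpt1a (-0.02), Ppara (-0.11), Fabp1 (0.21) and Acat1 (0.29). In males the count stayed at 0 in all alternatives run. Over both sexes (4) it was 10 with DESeq2, 9 with no filter on low counts, 0 with the slope, 15 without KO male replicate 2 and WT male replicate 3 together, 0 without both second female replicates, and 0 to 15 leaving out 1 library. The difference between the sexes (0) gave 3 with DESeq2 and 5 with no filter, and 0 to 0 leaving out 1 library. The sex count in WT livers (6) was 14 without KO male replicate 2 and WT male replicate 3, and 5 to 9 leaving out 1 library. In KO livers (9) it was 5 with only the 6 libraries compared, 5 without both second female replicates, and 5 to 10 leaving out 1 library. Other alternatives, the replicate block aside, kept each count within 1.5 times. The 2 fits that left out a pair of libraries were chosen after seeing the data. Shares of all genes called are not given beside these counts, so shifts of the members and of all genes cannot be told apart. The causes of these shifts were not tested.

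Same-numbered KO and WT libraries did not deviate together (correlations of -0.24, -0.22 and -0.34 in females and 0.12, -0.80 and -0.73 in males over 9366 genes), so the numbers were not taken to pair them. With the replicate block 13 members were called in females, 0 in males, 0 over both sexes, 0 for the difference, 6 between the sexes in WT and 6 in KO livers. Depth limits members read at few counts, such as Acot3 in males, Slc16a6, Pdk4 and Fgf21, and the further genes Cyp4a14 and Cyp4a31 in WT males.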
